A study of Mus musculus with 28 samples.

Results

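The tRNAs described here carry methionine, isoleucine, asparagine and the 3 aromatic amino acids phenylalanine, tyrosine and tryptophan. They were taken by name: every row of the deposited table whose tRNA name begins with iMet, Met, Ile, Asn, Phe, Tyr or Trp was a member. This gave 71 of the 408 tRNA rows and of the 80668 RNAs in all. Summed by amino acid and anticodon, the 71 rows formed 8 groups, called isoacceptors here, beside 43 such groups of other tRNAs. The initiator methionine tRNA (iMet-CAT, 9 rows) was kept apart from the elongator (Met-CAT, 8 rows), although both carry the anticodon CAT. The other members were Ile-AAT with 11 rows, Ile-TAT with 5, Asn-GTT with 13, Phe-GAA with 7, Tyr-GTA with 10 and Trp-CCA with 8.

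Blood came from 14 female wildtype C57BL/6N mice, an inbred laboratory strain, with no further treatment in the labels other than anesthesia: 3 mice aged 2 months, 4 aged 6 months, 3 aged 8 months, 2 aged 12 months and 2 aged 18 months. Ultracentrifugation split the platelet-free plasma of each mouse into a pellet enriched in extracellular vesicles (EVs) and a fluid depleted of them, for which the name plasma is kept. There were 28 small RNA libraries, labelled as 1 per fraction and mouse, and the protocol in the labels says that every sample is from a single animal. The plasma titles of replicates 2 and 3 at 2 months, however, share 1 code that appears to name both mice, while their EV titles name 1 mouse each. Only the replicate number ties these 2 plasma libraries to an EV library, whether each is from a single mouse was not tested, and the calls between the fractions are also given without both mice. A small RNA library holds no protein marker of vesicles, so the enrichment rests on the labels.

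A tRNA brings an amino acid to the ribosome, where its anticodon pairs with a codon of the message. The initiator methionine tRNA sets the first methionine of a protein, and the elongator tRNA inserts methionine further along the chain. Isoleucine is read by a major tRNA with the anticodon AAT and by a minor one with the anticodon TAT, whose genes carry an intron, as tyrosine tRNA genes do. Cells under stress cut mature tRNAs, often in the anticodon loop, and the resulting fragments are among the most abundant small RNAs of blood. Which end of a tRNA the counted fragments come from cannot be read from the table, which holds 1 value per tRNA row.

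The only member with sequence in the reference tables used here was the intron-containing Ile-TAT gene, and it is shown because its 3′ end is also annotated as a miRNA. The RefSeq annotation of GRCm38.p6 lists 70 nuclear genes with these anticodons, between 72 and 96 bases long, 29 of them on chromosome 13. It holds 16 genes for methionine (initiator and elongator not separated), 15 for Ile-AAT, 13 for Asn-GTT, 10 for Tyr-GTA, 8 for Trp-CCA and 7 for Phe-GAA. Its single Ile-TAT gene, n-TItat14, spans 94 bases at chr13:21896938-21897031 on the minus strand and is annotated as a tRNA gene. This gene lies inside the hairpin of the miRNA gene Mir1983 (chr13:21896918-21897049, minus strand, 132 bases), which adds 18 bases before the tRNA and 20 after it. The 3 sequences follow in RNA letters from 5′ to 3′, as RefSeq gives them for GRCm38.p6. Capitals mark the mature miRNA in the hairpin, the first UAU of the tRNA gene (bases 35 on, the anticodon) and, in the mature miRNA, the 8 bases that lie beyond the 3′ end of the tRNA gene.
Mir1983 hairpin: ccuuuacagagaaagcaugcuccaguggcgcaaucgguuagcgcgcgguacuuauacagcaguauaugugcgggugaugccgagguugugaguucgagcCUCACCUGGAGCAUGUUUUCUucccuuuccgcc
n-TItat14 gene: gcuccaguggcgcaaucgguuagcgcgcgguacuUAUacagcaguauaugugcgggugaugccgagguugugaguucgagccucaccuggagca
mmu-miR-1983: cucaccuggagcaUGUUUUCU
The first 13 of the 21 bases of mmu-miR-1983 are thus the 3′ end of the tRNA gene. Which numbered Ile-TAT row of the table corresponds to this gene was not stated. The counted rows name 5 Ile-TAT and 11 Ile-AAT copies, where RefSeq lists 1 and 15 genes. The RefSeq Ile-AAT genes n-TIaat15, n-TIaat16 and n-TIaat17 are 96, 95 and 93 bases long. Whether the 2 sources assign the same genes to different anticodons was not tested.

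A plasma library held 928651 to 23905651 counts, and an EV library 4764338 to 52753818. All tRNA rows together took 61.5% ± 11.1 (SD, n = 14) of the counts in plasma and 32.1% ± 12.0 (SD, n = 14) in EVs. The members took 1.07% to 2.45% of a plasma library and 0.374% to 1.81% of an EV library. Of tRNA counts alone their share was 2.72% ± 0.367 in plasma and 3.19% ± 0.435 in EVs (SD, n = 14 each). Because tRNA fragments fill such unequal parts of the 2 fractions, a fold change between them depends on what it is scaled to. Levels are therefore given as CPM, the counts divided by a library size corrected with the TMM method, which assumes that most RNAs do not change, and differences between fractions are also given on other scales. miRNAs known from red cells (5 listed) summed to 687 to 3170 RPM in plasma and 512 to 4268 RPM in EVs. The 3 platelet miRNAs summed to 46.2 to 268 RPM in plasma and 60.5 to 401 RPM in EVs. The 3 liver miRNAs summed to 14.6 to 177 RPM in plasma and 19.2 to 243 RPM in EVs. The 3 muscle miRNAs summed to 0.757 to 8.01 RPM in plasma and 0.489 to 8.08 RPM in EVs. All 14 of these markers had counts in both fractions, and their part in the tRNA results was not tested. In such mixtures, fewer vesicles or source cells of a kind and less RNA in each cannot be told apart.

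Many of the 71 rows do not stand for separate measurements. The rows name 35 sequences, and the last number of a row name counts the gene copies of 1 sequence. For 11 sequences the table has more than 1 row, and for 8 of these 11 the rows hold the same count in every library. All 9 copies of Asn-GTT-3 are such equal rows, and how reads that match several copies were counted is not given for this table in the sources used here. In the other 3, in Ile-TAT and Tyr-GTA, the total counts of the copies differed by at most 1.10%. Differently numbered sequences also came close: total counts of Tyr-GTA-2 and Tyr-GTA-3 differed by 2.71%, those of Ile-AAT-1 and Ile-AAT-3 by 2.65%, and those of Trp-CCA-3 and Trp-CCA-4 by 0.429%. In all, 42 different sets of 28 counts stand behind the 71 rows. Summed levels are thus weighted by gene copies, so the size of a share of 1 tRNA among others depends on how its copies are counted.

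The comparison of EVs with plasma asks which tRNA fragments travel with vesicles rather than free in plasma. Elongator methionine tRNA was the 1 member that differed between the fractions in the main test, with a 1.96-fold higher level in EVs, and it was higher in EVs in 14 of 14 mice. Its plasma levels ran from 34.1 to 233 CPM around a median of 77.7, and its EV levels ran from 64.7 to 401 around 160. The ranges of the fractions overlapped, and the log2 difference within a mouse ran from 0.0092 in 6-month replicate 2 to 1.99 in 6-month replicate 3. In RPM it was higher in EVs in 10 of 14 mice. On the log2 scale EVs exceeded plasma by 0.97 (SE 0.27, adjusted p = 0.0123 by edgeR's quasi-likelihood test with age as a covariate and Benjamini-Hochberg adjustment over 21967 RNAs). Of those RNAs 17.3% passed the test, 9.99% as higher in EVs and 7.3% as lower. For the members, 1 of 8 passed, as higher, and their median log2 fold change was -0.02, as it was over all RNAs tested (-0.02). Of the 43 other tRNA isoacceptors 2 passed, both higher in EVs, with a median of -0.18.

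Initiator methionine tRNA did not pass the test. Its plasma levels ran from 1227 to 11074 CPM around a median of 3520, and its EV levels ran from 892 to 14887 around 3031. It was lower in EVs in 9 of 14 mice, and its log2 fold change was -0.18 (SE 0.41, adjusted p = 0.846 by edgeR). The counts behind the 2 tRNAs differ widely, from 125 to 5959 per library for the elongator and from 3473 to 221043 for the initiator.

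**Figure D1:**
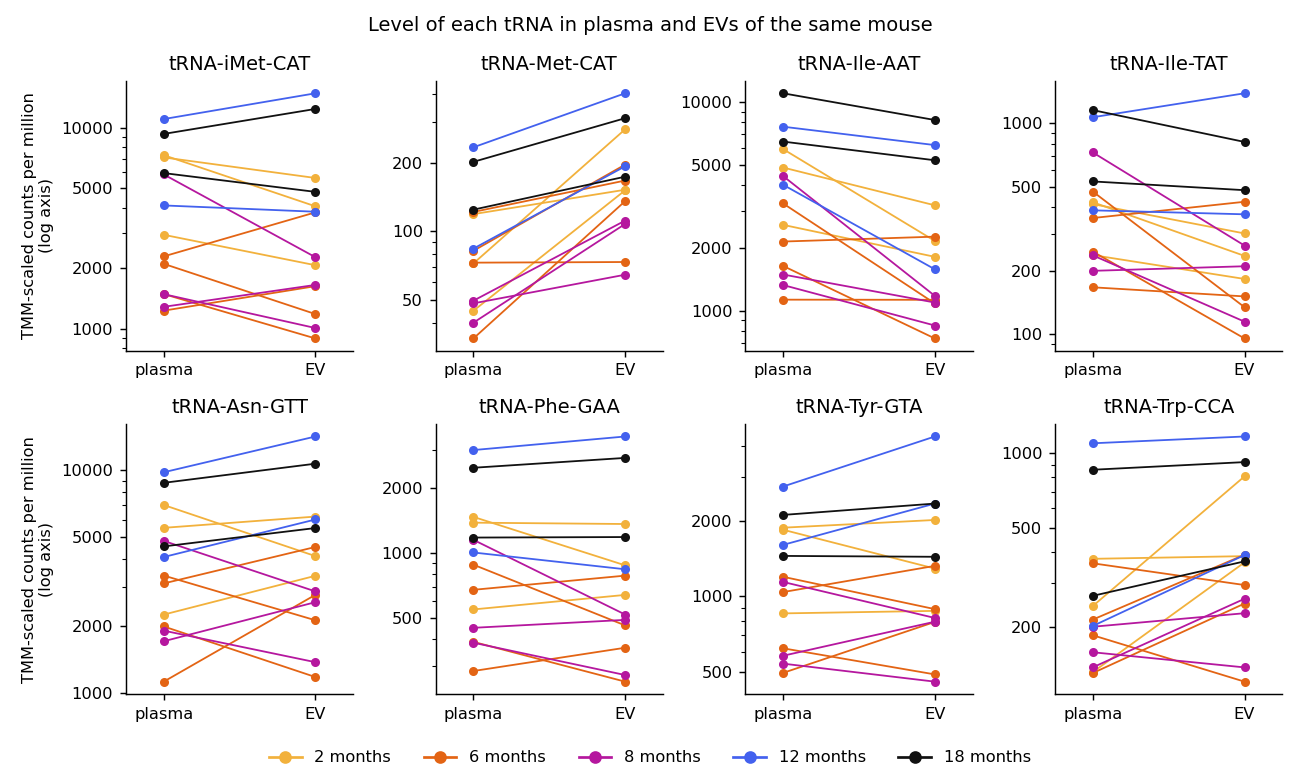
Level of the 8 tRNA isoacceptors in the plasma and the EVs of each of 14 mice, in TMM-scaled CPM on log axes; each line joins the 2 libraries of a mouse and its colour gives the age. Met-CAT rises from plasma to EVs in all 14 mice on this scale, Ile-AAT is lower in EVs in 13, and iMet-CAT is lower in 9 and higher in 5.

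The isoleucine tRNAs were lower in EVs than in plasma in most mice. Ile-AAT ran from 1130 to 11017 CPM in plasma, around a median of 3640, whereas its EV values ran from 737 to 8204 around 1697. On the TMM scale it was lower in EVs in 13 of 14 mice, with 6-month replicate 1 as the exception. In RPM Ile-AAT was lower in EVs in that mouse too, at 5545 in plasma and 1848 in EVs. The log2 fold change was -0.74 (SE 0.35, adjusted p = 0.155 by edgeR), which did not pass the threshold, while the fit with the mouse as a replicate block gave -0.75 (SE 0.18, adjusted p = 0.00413). The minor Ile-TAT ran from 167 to 1157 CPM in plasma, around a median of 401, whereas its EV values ran from 95.5 to 1390 around 249. It was lower in EVs in 11 of 14 mice, with a log2 fold change of -0.44 (SE 0.31, adjusted p = 0.382), and with the replicate block of -0.53 (SE 0.18, adjusted p = 0.0429). Under this paired fit 3 of the 8 members passed, Met-CAT as higher in EVs and both isoleucine tRNAs as lower, where 11.0% of all RNAs passed as higher and 7.3% as lower. Of the 43 other tRNA isoacceptors 5 passed it as higher and 12 as lower. Without the 2 mice whose plasma labels share a code, the paired fit gave -0.79 for Ile-AAT (adjusted p = 0.0123 by edgeR), -0.55 for Ile-TAT (adjusted p = 0.0834, no longer past the threshold) and 0.84 for Met-CAT (adjusted p = 0.00171).

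The miRNA annotated at the end of the Ile-TAT gene, mmu-miR-1983, was scarce. A plasma library held 5 to 117 counts of it, and an EV library 6 to 141. Plasma levels ran from 0.982 to 8.67 CPM around a median of 2.30, and EV levels from 0.594 to 9.50 around 1.62. It was lower in EVs in 9 of 14 mice, with a log2 fold change of -0.47 (SE 0.36, adjusted p = 0.446 by edgeR in the table of single rows), which did not pass the threshold. In RPM it was lower in EVs in 14 of 14 mice. It passed the test with the RPM number as the scale, at -1.03 (adjusted p = 0.0147), and with the total count, at -1.18 (adjusted p = 0.0106), but not with tRNA counts, at -0.24 (adjusted p = 0.695). With the RPM number 19.5% of all RNAs in that table passed as lower in EVs, and with the total count 8.25% did.

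The asparagine tRNA and the aromatic tRNAs did not pass the test in either direction. Asn-GTT ran from 1123 to 9813 CPM in plasma, around a median of 3725, whereas its EV values ran from 1178 to 14210 around 3740. It was higher in EVs in 9 of 14 mice, at a log2 fold change of 0.12 (SE 0.34, adjusted p = 0.888). Phe-GAA was higher in 7 mice and lower in 7, at 284 to 3008 CPM in plasma and 254 to 3477 CPM in EVs. Its log2 fold change was -0.16 (SE 0.36, adjusted p = 0.852 by edgeR). Tyr-GTA was higher in EVs in 8 of 14 mice, at 494 to 2748 CPM in plasma and 456 to 4356 CPM in EVs. Its log2 fold change was 0.13 (SE 0.31, adjusted p = 0.863). Trp-CCA was the aromatic tRNA with the largest fold change, 0.49 on the log2 scale (SE 0.34, adjusted p = 0.372). Its plasma levels ran from 130 to 1099 CPM around a median of 207, its EV levels ran from 120 to 1171 around 365, and it was higher in EVs in 11 of 14 mice.

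The scale moved all of these values together. Scaling by the submitters' RPM number shifted the median log2 fold change of all RNAs tested from -0.02 to -0.45, and scaling by the total count shifted it to -0.50. Scaling by the counts of all tRNAs shifted it to 0.47. Met-CAT remained positive on every scale, at 0.46 with the RPM number (adjusted p = 0.221 by edgeR), 0.41 with the total count (adjusted p = 0.344) and 1.37 with tRNA counts (adjusted p = 0.000941). Both isoleucine tRNAs remained negative on every scale: Ile-AAT was at -1.25 with the RPM number (adjusted p = 0.00314), -1.28 with the total count (adjusted p = 5.79e-05) and -0.33 with tRNA counts (adjusted p = 0.346), and Ile-TAT at -1.01, -1.13 and -0.15. With the RPM number 0 members passed as higher and 2 as lower, where 4.58% and 19.1% of all RNAs did and 17 of the 43 other tRNA isoacceptors passed. With the total count it was 0 and 4 members (iMet-CAT and Phe-GAA beside the isoleucine tRNAs), where 2.95% and 7.2% of all RNAs did and 27 of the 43 others passed. With tRNA counts it was 2 (Met-CAT and Trp-CCA) and 0, where 10.6% and 1.61% of all RNAs did and 5 of the 43 others passed. The directions of iMet-CAT, Asn-GTT, Phe-GAA, Tyr-GTA and Trp-CCA changed with the scale. In the fit without a block, the call of Met-CAT also rested on the 2 mice whose plasma labels share a code. Without them its log2 fold change was 0.79 (adjusted p = 0.0781 by edgeR), and 0 of 8 members passed where 13.5% of 21702 RNAs did. With the replicate block Met-CAT still passed without both mice, as given above. In the fit without a block, Met-CAT kept its call on leaving out any 1 mouse (adjusted p from 0.00717 to 0.0317 by edgeR). Its EV levels at 2 months were 152 and 151 CPM in replicates 1 and 2 and 279 CPM in replicate 3.

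**Figure D2:**
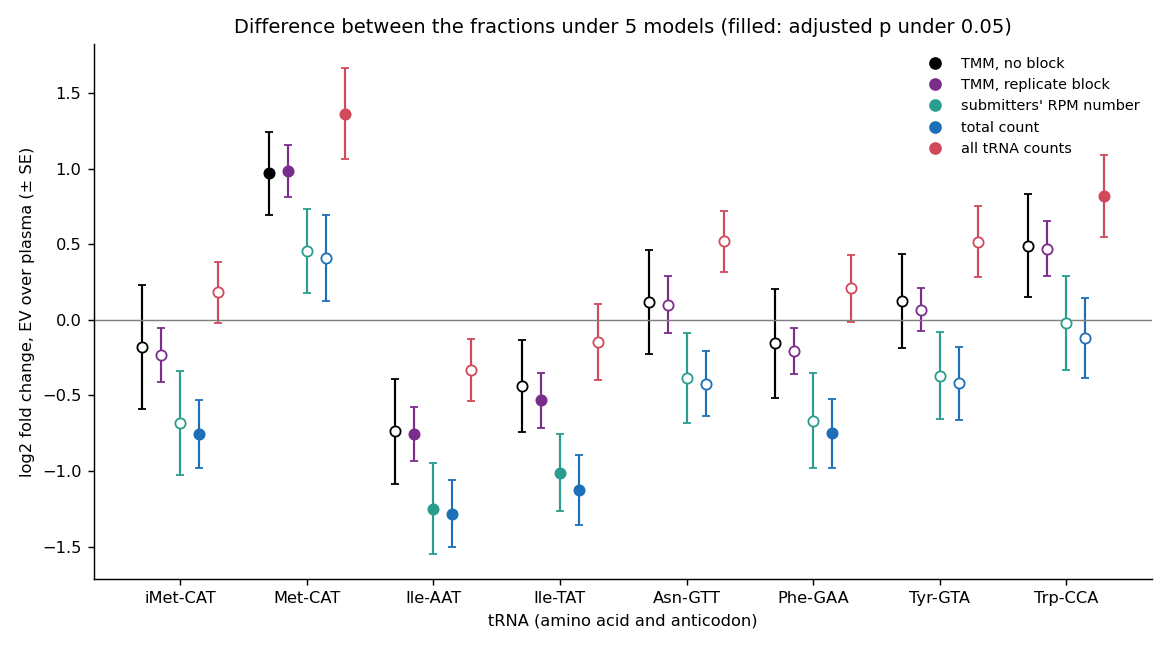
Log2 fold change of EVs over plasma for the 8 tRNA isoacceptors, with bars of 1 SE, under the main TMM fit, the same fit with a replicate block and 3 other scalings (14 mice); filled points have an adjusted p under 0.05. Met-CAT lies above 0 under all 5 and Ile-AAT and Ile-TAT lie below 0 under all 5, whereas the other tRNAs cross 0 with the scaling.

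As a share of all tRNA counts, which no scaling of the library can move, most members were higher in EVs. The 43 other isoacceptors were not compared in this way, so whether this is particular to the members was not tested. Met-CAT was 0.0178% ± 0.00706 of tRNA counts in plasma and 0.0462% ± 0.0187 in EVs (SD, n = 14 each) and was higher in EVs in 14 of 14 mice. Trp-CCA was 0.0562% ± 0.0215 in plasma and 0.0994% ± 0.0272 in EVs and was higher in 13 of 14. Asn-GTT was 0.737% ± 0.126 in plasma and 1.06% ± 0.205 in EVs and was higher in 13 of 14 mice, and Tyr-GTA (0.235% ± 0.0512 and 0.337% ± 0.111) was also higher in 13 of 14. The values for Phe-GAA were 0.180% ± 0.0340 and 0.207% ± 0.0363, higher in EVs in 12 mice, and those for iMet-CAT 0.722% ± 0.138 and 0.821% ± 0.166, higher in 11. Ile-AAT was 0.689% ± 0.147 of tRNA counts in plasma and 0.547% ± 0.135 in EVs and was lower in EVs in 13 of 14 mice. Ile-TAT, at 0.0854% ± 0.0247 and 0.0774% ± 0.0194, was lower in 9 of 14. In the fit scaled to tRNA counts Met-CAT and Trp-CCA passed the threshold, Trp-CCA with a log2 fold change of 0.82 (adjusted p = 0.0382 by edgeR), and the other 6 members did not. In that fit 10.6% of all RNAs passed as higher in EVs, and 5 of the 43 other tRNA isoacceptors passed.

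The split between initiator and elongator methionine tRNA was compared within each library, where scaling cannot enter. Initiator counts made up 97.4% ± 1.33 of all methionine tRNA counts in plasma (SD, n = 14), between 94.5% and 99.2% with a median of 97.9%. In EVs they made up 94.4% ± 2.58, between 87.6% and 97.5% with a median of 95.1%. The share was lower in EVs in 14 of 14 mice, by 3.02 percentage points on average (difference -3.02 ± 1.86, SD). An exact two-sided sign change test over the 14 mice gave p = 0.000122, the smallest that all sign changes of 14 values can give. The difference was between -6.91 points in 6-month replicate 4 and -0.338 points in 18-month replicate 2. With the largest row of each kind alone it was -8.48 points, and with rows of 1 sequence counted once -5.53 points. Without the 2 mice whose plasma labels share a code it was -2.77 points (exact p = 0.000488, the smallest that 12 mice can give).

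By age, the initiator share in EVs was 95.0% ± 1.63 at 2 months (n = 3), 91.8% ± 3.11 at 6 months (n = 4) and 94.4% ± 0.812 at 8 months (n = 3). It was 95.2% and 97.4% in the mice of 12 months, and 96.5% and 97.5% in those of 18 months. In plasma it was 98.6% ± 0.321, 95.9% ± 1.24 and 97.7% ± 1.30 at 2, 6 and 8 months, and between 97.9% and 98.0% in the 4 older mice. The lowest shares of both fractions were those of 6-month replicate 4, and no age was compared with another by a test.

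**Figure D3:**
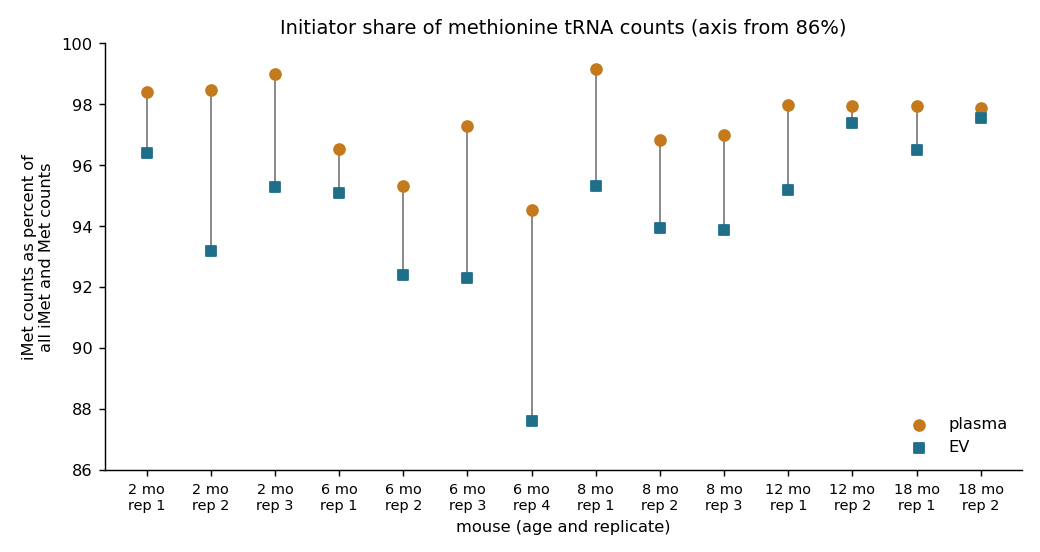
Initiator (iMet) counts as a percent of all methionine tRNA counts in plasma (circles) and EVs (squares) of each of the 14 mice, ordered by age; the axis starts at 86%. The EV value lies under the plasma value of the same mouse in all 14, most in 6-month replicate 4 (-6.91 percentage points) and least in 18-month replicate 2 (-0.338).

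Fitted one by one, 70 of the 71 rows passed the filter of at least 1 RPM in 2 of the 14 libraries of a fraction. Asn-GTT-5-1, with 33 counts over all plasma libraries and 57 over all EV libraries, did not. Of 22323 RNAs tested in this table, 17.1% passed the threshold, 10.0% as higher in EVs and 7.08% as lower. Of the 70 rows 3 passed as higher and 1 as lower, and their median log2 fold change was 0.00. Of the 337 rows of other tRNAs, 20 passed as higher and 3 as lower, with a median of -0.28.

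Within Met-CAT 1 of 6 sequences passed. The equal rows Met-CAT-1-1 and Met-CAT-1-2 ran from 9.77 to 68.1 CPM in plasma, around a median of 22.0, whereas their EV values ran from 24.4 to 145 around 55.4. They were higher in EVs in 14 of 14 mice, at a log2 fold change of 1.26 (SE 0.29, adjusted p = 0.00215 by edgeR). The other 5 sequences had log2 fold changes between -0.10 (Met-CAT-4-1) and 0.55 (Met-CAT-2-1), and none of them passed. Met-CAT-1 made up 50.3% ± 9.47 of the counts of the elongator sequences in plasma and 64.8% ± 7.95 in EVs (SD, n = 14), each sequence counted once. With the RPM number as the scale its log2 fold change was 0.76 (adjusted p = 0.0691) and with the total count 0.70 (adjusted p = 0.151), neither past the threshold. Without the 2 mice whose plasma labels share a code it was 1.04 (adjusted p = 0.0215).

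Within Ile-TAT the only row past the threshold was Ile-TAT-3-1, the sequence with the fewest counts. A plasma library held 8 to 308 counts of it, and an EV library 16 to 158. Plasma levels ran from 3.74 to 22.8 CPM around a median of 10.6, and EV levels from 1.43 to 10.6 around 4.49. It was lower in EVs in 13 of 14 mice, with a log2 fold change of -1.26 (SE 0.32, adjusted p = 0.00476 by edgeR), and scaled to tRNA counts it was -0.81 (adjusted p = 0.0523). With the RPM number it was -1.70 (adjusted p = 8.25e-05) and with the total count -1.75 (adjusted p = 3.83e-05). The replicate block gave -1.28 (adjusted p = 3.35e-05 by edgeR). Without the 2 mice whose plasma labels share a code it was -1.31 (adjusted p = 0.00605). The more abundant sequences Ile-TAT-2 (largest row Ile-TAT-2-3, -0.49, adjusted p = 0.322) and Ile-TAT-1 (-0.06, adjusted p = 0.930) did not pass. Ile-TAT-2 was 61.7% ± 3.49 of the counts of this isoacceptor's sequences in plasma and 55.9% ± 6.60 in EVs.

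Of the 6 Trp-CCA sequences 1 passed. Trp-CCA-2-1 ran from 17.0 to 197 CPM in plasma, around a median of 41.5, whereas its EV values ran from 28.3 to 376 around 77.7. It was higher in EVs in 12 of 14 mice, at a log2 fold change of 0.96 (SE 0.33, adjusted p = 0.0443). With the RPM number as the scale it was at 0.42 (adjusted p = 0.319 by edgeR) and with the total count at 0.30 (adjusted p = 0.483), neither past the threshold. In the fit without a block this call was also lost on leaving out any 1 of 8 mice (2-month replicates 2 and 3, 6-month replicates 1 and 3, 8-month replicates 1 and 3, 12-month replicate 1 or 18-month replicate 2), with adjusted p up to 0.111, and without the 2 mice whose plasma labels share a code (0.72, adjusted p = 0.205). With the replicate block Trp-CCA-2-1 passed at 0.92 (adjusted p = 0.00185 by edgeR), and without those 2 mice at 0.72 (adjusted p = 0.0109). Scaled to tRNA counts it passed at 1.24 (adjusted p = 0.00134). Trp-CCA-1, -3, -4 and -6, whose counts are nearly equal, had log2 fold changes between 0.42 and 0.48, and Trp-CCA-5-1 was at -0.24 (adjusted p = 0.703). The share of Trp-CCA-2 among the tryptophan sequences was 23.3% ± 4.50 in plasma and 31.7% ± 4.20 in EVs.

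The leading sequences of the other isoacceptors were described in the same way. The share of iMet-CAT-1 was 48.4% ± 0.185 in plasma and 48.4% ± 0.223 in EVs, that of Ile-AAT-1 45.9% ± 1.66 and 45.4% ± 2.32, and that of Tyr-GTA-2 41.5% ± 1.32 and 40.7% ± 2.08. That of Asn-GTT-3 was 66.2% ± 4.46 and 67.2% ± 3.58, and that of Phe-GAA-1 68.1% ± 5.97 and 63.1% ± 7.77 (SD, n = 14 throughout). These shares were not tested. All 4 Ile-AAT sequences had negative log2 fold changes, between -0.89 (Ile-AAT-4-1, adjusted p = 0.0579) and -0.55 (Ile-AAT-2-1, adjusted p = 0.255), and the leading row Ile-AAT-1-1 was at -0.74 (adjusted p = 0.136). The leading rows Asn-GTT-3-1 (0.12), Phe-GAA-1-1 (-0.18), Tyr-GTA-2-1 (0.09) and iMet-CAT-1-1 (-0.18) had adjusted p between 0.819 and 0.907.

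**Figure D4:**
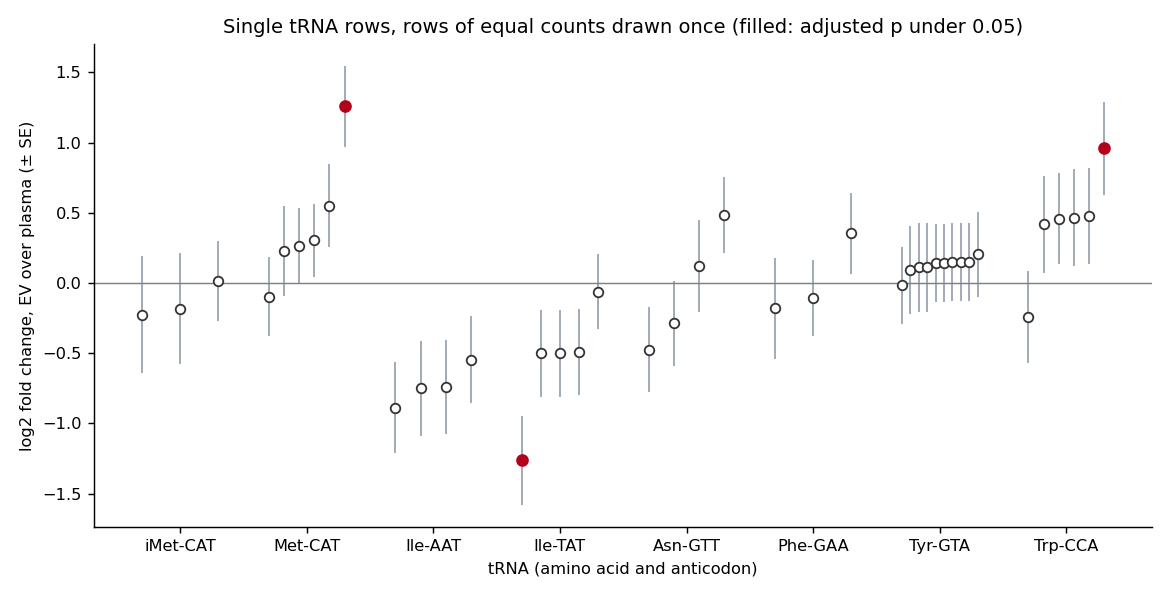
Log2 fold change of EVs over plasma for the single rows of the 8 tRNA isoacceptors that passed the filter, with bars of 1 SE; rows with equal counts are drawn as 1 point, and filled points have an adjusted p under 0.05. The 3 filled points are Met-CAT-1 at 1.26, Trp-CCA-2 at 0.96 and Ile-TAT-3 at -1.26, all from the TMM scale.

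The age series asks whether circulating tRNA fragments change over adult life. No member passed the test for a trend in either fraction, by edgeR or by DESeq2. In plasma, 0 of 8 passed where 0.0141% of 21276 RNAs did, and in EVs 0 of 8 where 0.0% of 18214 did. At an unadjusted p under 0.05 there were 4 of 8 members in plasma, where 7.02% of all RNAs and 16 of the 43 other tRNA isoacceptors were under it, and 3 of 8 in EVs, where 5.28% of all RNAs and 14 of the 43 were. All 8 slopes were positive in both fractions, with a median log2 change per month of 0.08 in plasma and 0.10 in EVs, against 0.0058 and -0.0033 over all RNAs tested. All 43 other tRNA isoacceptors had positive slopes as well, with medians of 0.07 and 0.08. Scaled to tRNA counts, the members' median slopes were 0.03 and 0.01, and in EVs those of Met-CAT, Tyr-GTA and Trp-CCA turned negative. With that scaling 0 of 8 members in either fraction had an unadjusted p under 0.05, where 3.32% of all RNAs did in plasma and 2.16% in EVs.

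The smallest p in EVs and in plasma belonged to the minor isoleucine tRNA. Its levels in plasma were 423, 237 and 414 CPM at 2 months, 356, 247, 167 and 475 at 6 months and 728, 237 and 200 at 8 months. At 12 months they were 387 and 1070, and at 18 months 531 and 1157. In EVs Ile-TAT measured 235, 183 and 301 at 2 months, 425, 95.5, 151 and 134 at 6 months and 263, 115 and 210 at 8 months. At 12 months its EV levels were 371 and 1390, and at 18 months 482 and 817. In EVs the 4 older mice lay above all younger ones except 6-month replicate 1, while in plasma the ages overlapped. In RPM the EV library of that replicate was at 347, and those of the 4 older mice ran from 742 to 1490. The slope was 0.10 per month in plasma (SE 0.03, adjusted p = 0.669 by edgeR) and 0.13 in EVs (SE 0.04, adjusted p = 0.752).

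The geometric means did not climb steadily with age. On the TMM scale all 16 combinations of the 8 tRNAs and 2 fractions had the same shape. The geometric means at 6 and 8 months were both below those at 2, 12 and 18 months. Those at 12 and 18 months were both above that at 2 months. In RPM this shape was not seen throughout. Plasma Met-CAT measured 207, 89.2 and 105 RPM at 2 months and 213, 166, 73.7 and 316 RPM at 6 months. For iMet-CAT in EVs the geometric means were 3618 CPM at 2 months, 1596 at 6, 1555 at 8, 7542 at 12 and 7727 at 18 months. For Asn-GTT in plasma they were 4427, 2199, 2503, 6328 and 6330. The share of all tRNAs in the counts moved the same way: in plasma it was 63.4% ± 4.29 at 2 months, 55.7% ± 8.57 at 6 months and 49.7% ± 5.06 at 8 months, then between 72.1% and 78.8% in the 4 older mice. In EVs it was 33.6% ± 8.42, 29.6% ± 8.95 and 17.4% ± 7.53, then between 40.0% and 51.4%. The older ages hold 2 mice each. In TMM-scaled CPM, 12-month replicate 2 was the highest library in 13 of the 16 combinations and 18-month replicate 2 in the other 3. Whether the members' levels follow anything but the tRNA content of a library was not tested.

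Marker miRNAs of other cells were summed by age as well. The 5 red-cell miRNAs summed to 1263 to 3170 RPM in plasma at 2 months, 687 to 1548 at 6, 855 to 912 at 8, 1096 to 2787 at 12 and 1141 to 1701 at 18 months. In EVs they summed to 1548 to 3555 RPM at 2 months, 512 to 1153 at 6, 644 to 917 at 8, 2111 to 4268 at 12 and 772 to 2314 at 18 months. In both fractions the red-cell sums at 8 months lay below all those at 2 and 12 months, while in plasma those at 6 months overlapped the other ages. The mean sums of the other lists were higher at 6 than at 2 months and lower at 8 months, in both fractions. In plasma at 2, 6 and 8 months they were 93.4, 161 and 80.2 RPM for platelets. For liver they were 57.9, 67.4 and 24.6 RPM, and for muscle 2.05, 4.41 and 1.56 RPM. The 3 platelet miRNAs in EVs summed to 60.5 to 344 RPM in the 10 mice up to 8 months of age and to 172 to 401 RPM in the 4 older mice. In plasma the platelet sums were 46.2 to 268 RPM and 93.6 to 216 RPM in the same mice. For liver miRNAs the sums in EVs were 19.2 to 243 RPM in the younger and 126.1 to 179.2 RPM in the older mice, and in plasma 14.6 to 135 RPM and 35.2 to 177 RPM. For muscle miRNAs they were 0.489 to 7.59 RPM and 4.55 to 8.08 RPM in EVs, and 0.757 to 8.01 RPM and 1.99 to 5.79 RPM in plasma. The EV library of 12-month replicate 2, the highest in most tRNAs, also had the highest red-cell and platelet sums of all EV libraries. The part of these cells in the age pattern was not tested.

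**Figure D5:**
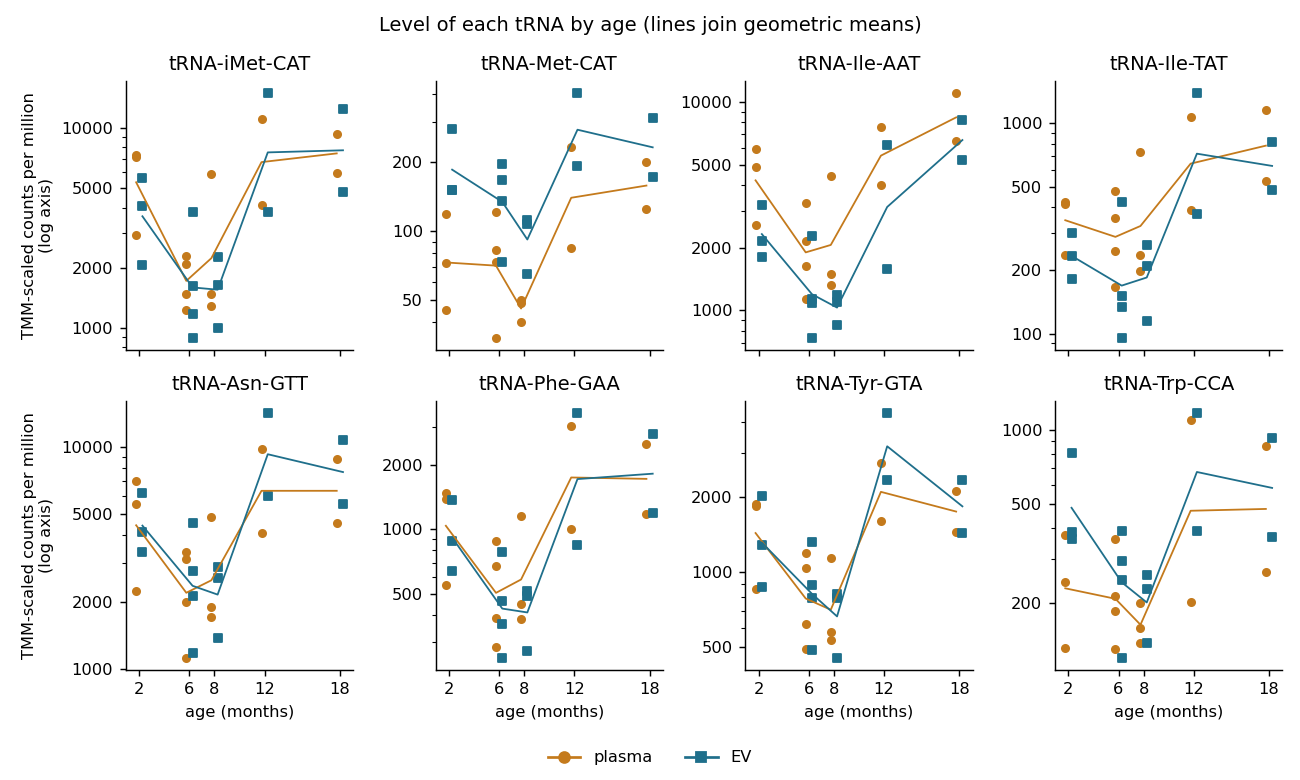
Level of the 8 tRNA isoacceptors against age in plasma (circles) and EVs (squares), 1 point per library, in TMM-scaled CPM on log axes; lines join the geometric means of the ages. On this scale the means at 6 and 8 months lie below those at 2, 12 and 18 months in all 16 combinations of tRNA and fraction.

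As a share of tRNA counts the members were 2.28% ± 0.382 at 2 months, 2.70% ± 0.231 at 6 months and 2.75% ± 0.230 at 8 months in plasma, and between 2.87% and 3.36% in the 4 older mice. In EVs they were 2.75% ± 0.341, 3.16% ± 0.520 and 3.28% ± 0.0943, and between 3.11% and 3.97% in the older mice. These shares were not tested between ages.

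The slopes of the members were compared between the fractions by the interaction term of age with fraction, and none differed past the threshold. Of 21967 RNAs 0.0% passed in edgeR and 2 in DESeq2, and of the 8 members 0 passed in either tool and 0 had an unadjusted p under 0.05. The interaction terms were between -0.05 per month for Trp-CCA and 0.05 for iMet-CAT, with standard errors of 0.06 and 0.07. A difference in slope of this size was thus not detectable in this fit, which does not pair the 2 libraries of a mouse. With the replicate block 0 of 8 members passed as well, where 0.0% of all RNAs did.

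Among single rows the age trends gave 0 calls of 70 in plasma, where 0.0139% of 21632 RNAs passed, and 0 of 70 in EVs, where 0.0% of 18570 did. At an unadjusted p under 0.05 there were 28 of 70 rows in plasma and 31 of 70 in EVs (by DESeq2 16 and 20), with many rows repeating the same counts. Under this limit were 7.29% of all RNAs and 118 of the 337 other tRNA rows in plasma, and 5.81% of all RNAs and 123 of the 337 in EVs. By DESeq2 it was 7.5% of all RNAs in plasma and 6.12% in EVs. All 70 slopes were positive in both fractions on the TMM scale. Of the 337 other tRNA rows 334 had positive slopes in plasma and 320 in EVs. The smallest p in plasma were those of Ile-TAT-1-1 (0.11 per month, adjusted p = 0.484 by edgeR), Trp-CCA-5-1 (0.12, adjusted p = 0.509) and Ile-TAT-2-3 (0.10, adjusted p = 0.633). In EVs they were those of the 3 copies of Ile-TAT-2, each at 0.14 with an adjusted p of 0.686. In the interaction test 0 of 70 rows passed, with 0.0% of 22323 RNAs, and the rows of smallest p, Met-CAT-1-1 with its equal copy (-0.06) and Ile-AAT-2-1 (-0.06), had unadjusted p of 0.278 and 0.295 in edgeR's quasi-likelihood test.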

How the data were processed

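For 28 libraries of 14 mice the authors deposited a table of unnormalized estimated counts. They also deposited it as an RPM signal, made by dividing the counts of a library by a single number. The study's methods, written for its tissue data, use RPM and keep the first of several paralogs. Whether either holds for these tables, and how reads with several matches were assigned, is stated in no source used here. The submitters' processing notes name the genome build mm10 and R 4.0.4. Counts were rounded (46 of 80668 rows, none of them a tRNA, were not whole), and tRNA rows were summed by amino acid and anticodon, or kept single. RNAs with at least 1 RPM in 2 of 14 libraries of a fraction were tested with edgeR 4.0.16 (R 4.3.3 and limma 3.58.1; TMM, glmQLFit, then glmQLFTest), adjusting p by Benjamini-Hochberg over all RNAs tested and a threshold of 0.05. Fractions were compared over 28 libraries with age as a covariate, and slopes per month were fitted within each fraction and compared by an interaction term. DESeq2 1.42.0 was the other tool. Shares and figures were made in Python 3.11.15 (pandas 2.3.3, matplotlib 3.10.9, scipy 1.17.1, numpy 2.4.6), and the fits were tested on simulated data.

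The members and lists were chosen with earlier results of these data known. Named single rows are the largest of each isoacceptor, the 3 smallest p of a comparison and the largest fold changes past the threshold, and Ile-AAT-4-1, Met-CAT-2-1, Met-CAT-4-1 and Asn-GTT-5-1 were added after their values were seen. Libraries were paired by age and replicate number, since the labels' protocol takes each sample from 1 animal. For 2-month replicates 2 and 3 the plasma code appears to name both mice, so their pairing rests on that number alone. Over 21967 RNAs the deviations from the age means correlated within a mouse with r of -0.08 to 0.37, and 7 of 10 plasma libraries at ages with more than 2 mice lay nearest to the EV library from the same animal. The closest 2 replicates differed by more than the noise of counting (a chi-square of 3.82 per degree of freedom), so none were merged. Where nothing but the labels separates replicates, p-values measure the spread between these libraries. Alternatives were other scalings, tools, filters and codings of age, the replicate block, rows of 1 sequence counted once, the largest row alone, and leaving out mice or libraries under 2000000 counts. The rows counted once, the largest row of an isoacceptor and the replicate block without the 2 mice that share a code were chosen after seeing the data. Depth limits precision most in the shallowest plasma library (928651 counts), and no molecular identifiers are known, so counting intervals would cover counting error only. All columns belong to a sample, and the columns of both tables were used.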

Additional observations from a re-analysis of the deposited data

Results flagged for a closer look

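A single value stood apart from the others of its group by Dixon's test of the gap to the nearest sample over the range of the group. Ile-TAT in the EV library of 6-month replicate 1 was at 425 CPM, while the other 3 EV libraries of that age lay from 95.5 to 151 CPM, a ratio of 0.831 that just exceeds the 95% critical value for 4 samples. In RPM this library was at 347 and the other 3 at 169, 301 and 352, so it was not the highest there. Its TMM factor was 0.494, against 1.58, 1.93 and 1.79 in the others. The test was run on 16 groups, the 8 tRNAs in both fractions at 6 months, where chance flags about 1 in 20 groups. The other groups at 6 months were not flagged, and the groups of other ages, with 2 or 3 mice each, were not tested.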

How the results depend on the processing

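In the comparison of EVs with plasma, the number of members past the threshold was 1 of 8 isoacceptors and 4 of 70 rows in the main fit. With the replicate block, in which each EV library is paired with the plasma library of its mouse, it was 3 and 20 (5 higher and 15 lower in EVs), and the paired fit changed no other call among the isoacceptors. The block called 18.3% of all RNAs in the isoacceptor table and 18.6% with single rows. With the block and without the 2 mice whose plasma labels share a code, 2 isoacceptors and 20 rows passed (15.4% and 15.7% of all RNAs), Ile-TAT no longer among them. With RPM scaling it was 2 and 17, all lower, with total count scaling 4 and 30, all lower, and with tRNA scaling 2 and 11, all higher. In the table of single rows these 3 fits called 24.0%, 11.2% and 12.3% of all RNAs, and 139, 182 and 55 of the 337 other tRNA rows, while the block called 109. With the largest row alone 2 of 8 isoacceptors passed, where 17.3% of all RNAs did (edgeR). Without a block and without the 2 mice whose plasma labels share a code 0 isoacceptors passed, where 13.5% of all RNAs did. Without a filter 1 of 71 rows, Trp-CCA-5-1, passed the age trend in plasma, where 0 had passed in the main fit. Without that filter 0.83% of 65868 RNAs and 8 of the 337 other tRNA rows passed.

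The following log2 values changed sign. Between the fractions, RPM scaling gave -0.39 for Asn-GTT, -0.37 for Tyr-GTA and -0.021 for Trp-CCA. Total count scaling gave -0.42, -0.42 and -0.12 for them, and tRNA scaling gave 0.21 for Phe-GAA and 0.18 for iMet-CAT. For the age trend in EVs, tRNA scaling gave -0.045 for Met-CAT, -0.032 for Trp-CCA and -0.0056 for Tyr-GTA, and total count scaling gave -0.0030 for Met-CAT. For the interaction, tRNA scaling gave -0.0040 for Asn-GTT, -0.0058 for Ile-AAT, -0.013 for Phe-GAA and -0.0072 for Tyr-GTA. Phe-GAA was at -6.8e-05 with RPM scaling and at -0.0024 with total count scaling. Without the 2 mice whose labels share a code the interaction was 0.0019 for Met-CAT and 0.0064 for Trp-CCA. No reversed value passed the threshold. On leaving out each mouse in turn, 1 isoacceptor and 3 to 4 rows passed between the fractions. In these fits 14.9% to 17.4% of all RNAs passed in the isoacceptor table and 14.7% to 17.3% with single rows. For the age trends and the interaction 0 members passed, where at most 0.109% of all RNAs did. The difference in initiator share lay from -3.23 to -2.72 points with each mouse left out (exact p = 0.000244 in each). Unpaired, the same difference had p = 0.0003 in a permutation test of 100000 resamples. Of the other alternatives for single tRNAs and mmu-miR-1983, 445 kept their direction and side of the threshold, 13 newly passed and 10 no longer did. What caused these changes was not tested. The age trend in EVs was not refitted without libraries under 2000000 counts, since no EV library was so shallow.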
